A study of Mus musculus with 6 samples.

Results

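The 8 genes described here are the MHC class II genes of the mouse and their transactivator: *H2-Aa*, *H2-Ab1* and *H2-Eb1*, which encode chains of the class II dimers, *Cd74*, which encodes the invariant chain, *H2-DMa*, *H2-DMb1* and *H2-DMb2*, which encode the peptide-exchange molecule H2-DM, and *Ciita*. They were chosen by their symbols among the 32285 genes of the deposited tables, all 8 were found there, and their unique molecular identifier (UMI) counts were read in each class of jejunal epithelial cells, with immune cells kept apart.

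The study prepared single-cell suspensions of jejunal epithelium from male wild-type C57BL/6J mice of about 30 weeks and captured the RNA of single cells in droplets with 10x Genomics 3′ chemistry. LFD sham mice ate a low-fat diet with 10% of calories as fat and were sham-operated, HFD sham mice ate a high-fat diet with 60% of calories as fat and were sham-operated, and HFD VSG mice ate the high-fat diet and underwent vertical sleeve gastrectomy, the removal of most of the stomach. The diets were given for 16 weeks before surgery, the tissue was taken 5 weeks after surgery following an overnight fast, and each group gave 1 crypt-labelled and 1 villus-labelled library, separated by scraping and a cell strainer and pooled from 3 LFD sham, 3 HFD sham or 2 HFD VSG mice. Each of the 6 libraries is therefore a single pool without replicates, so differences between them were set against counting error only, the variation between mice and between preparations is unknown, and no test was made.

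Each library had between 60522766 and 155522445 UMIs in its called barcodes, of which 24127 in all passed the filters. Enterocyte-like cells had a median of 13270 to 17618.5 UMIs in 5 libraries and of 34679 UMIs in the HFD VSG villi, which stand apart in depth. Between 17 and 43 called barcodes were shared by any pair of libraries. The crypt and villus labels did not order the cell classes as their names would: 2377, 1837 and 2896 enterocyte-like and 47, 56 and 154 stem-like cells came from the crypt-labelled LFD sham, HFD sham and HFD VSG libraries, against 1308, 1700 and 1127 enterocyte-like and 278, 127 and 449 stem-like cells from the villus-labelled ones. The labels are used below only as names of libraries. Although the preparations were epithelial, 1063 T cell-like and 71 B cell-like cells were found, with 563 and 457 of the T cell-like cells in the LFD sham and HFD VSG villi and 65 of the B cell-like cells in the LFD sham villi.

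MHC class II molecules present peptides from endocytosed proteins to CD4 T cells. The invariant chain Cd74 guides newly made dimers to endosomes and blocks their groove, and H2-DM then helps to exchange its remnant for other peptides. Ciita does not bind DNA itself but assembles on factors (RFX, CREB and NF-Y) that sit on the X and Y boxes of class II promoters, and in cells other than professional antigen-presenting cells it is induced mainly by interferon-γ. Enterocytes of the small intestine are among the non-hematopoietic cells known to make class II molecules. C57BL/6 mice lack a functional *H2-Ea* gene, so that *H2-Eb1* RNA is made without a surface I-E dimer.

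Promoter sequences are shown because the X and Y boxes are the elements through which Ciita is known to act; binding was not measured. RefSeq promoter entries (250 bases before to 50 after the annotated start, GRCm38) were matched for 5 of the 8 members, *H2-Aa*, *H2-Eb1*, *H2-DMa*, *H2-DMb1* and *H2-DMb2*, with 6 entries in all, and *H2-Ab1*, *Cd74* and *Ciita* had no entry. Capitals mark the X-box letters AACNGATGATGCT, the longest stretch with at most 1 varying base that the entries of *H2-Eb1*, *H2-DMb1* and *H2-DMb2* share, or, in *H2-Aa*, the CRE-type letters TGACGTCA, followed by the Y-box letters GATTGG. The windows lie on chromosome 17, just upstream of each start, and are written 5′ to 3′ on the gene's own strand.
H2-Eb1 (plus strand, chr17:34305766-34305824): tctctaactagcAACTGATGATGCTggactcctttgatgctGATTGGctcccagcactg
H2-DMb1 (plus strand, chr17:34153087-34153146): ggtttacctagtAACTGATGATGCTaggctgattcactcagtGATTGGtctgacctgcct
H2-DMb2 (plus strand, chr17:34145116-34145175): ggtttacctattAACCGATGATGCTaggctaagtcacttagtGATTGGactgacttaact
H2-Aa (minus strand, chr17:34287855-34287909): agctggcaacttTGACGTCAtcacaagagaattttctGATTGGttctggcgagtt
The gap between the capitals was 16 bases in *H2-Eb1* and 17 bases in *H2-DMb1*, *H2-DMb2* and *H2-Aa*. Searched on both strands of 32851 RefSeq promoters, the X-box letters occurred in 5 (0.0152%), the CRE-type letters in 588 (1.79%) and the Y-box letters in 5292 (16.1%). The X-box letters followed within 10 to 30 bases by the Y-box letters occurred in 3 promoters (0.00913%), those of *H2-DMb1*, *H2-DMb2* and *H2-Eb1*. The letters come from the members' own sequences, so the share describes how rare the match is and tests nothing. Neither promoter entry of *H2-DMa* held the X-box or CRE-type letters.

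Class II RNA was highest in the LFD sham enterocyte-like cells and several-fold lower in both HFD groups. The 7 class II genes together (all members but *Ciita*) had 52153 UMIs, or 1544 UMIs in 1000000 UMIs of the class (CPM; 95% exact Poisson interval 1531 to 1558), in the LFD sham crypts and 30472 UMIs, or 1642 CPM (1624 to 1661), in the LFD sham villi. They had 4731 UMIs or 199 CPM (194 to 205) in the HFD sham crypts and 2921 UMIs or 114 CPM (110 to 118) in the HFD sham villi. The HFD VSG crypts had 6360 UMIs or 124 CPM (121 to 127), and the HFD VSG villi 2493 UMIs or 61.7 CPM (59.3 to 64.1). The intervals of the 6 libraries did not overlap, and, like all intervals given here, they cover counting error only. Since the counts come from 3′ ends, values are UMIs per gene and are not scaled by transcript length.

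The dimer genes followed this order. *H2-Ab1*, the β chain of the I-A dimer, was measured at 319, 46.1 and 25.9 CPM in the LFD sham, HFD sham and HFD VSG crypts, and at 337, 27.1 and 11.8 CPM in the corresponding villi. *H2-Aa*, the α chain of the same dimer, was measured at 234, 24.95 and 11.3 CPM in the crypts and at 254, 12.6 and 3.12 CPM in the villi. *H2-Eb1*, the β chain of I-E, was measured at 191, 29.0 and 18.7 CPM in the crypts and at 186, 15.7 and 7.05 CPM in the villi. For all 3 dimer genes both LFD sham libraries lay above all 4 HFD libraries, and the HFD VSG library lay below the HFD sham library with the same label.

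*Cd74* had the most UMIs of the members in each of the 6 libraries, with 720, 85.4 and 57.9 CPM in the LFD sham, HFD sham and HFD VSG crypts and 776, 46.4 and 28.4 CPM in the villi. It made up 40.7% to 47.2% of the class II UMIs of enterocyte-like cells.

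The peptide-exchange genes and *Ciita* come next. *H2-DMa* was at 39.7, 8.94 and 7.52 CPM in the crypts and at 43.9, 8.78 and 8.83 CPM in the villi, in the order LFD sham, HFD sham and HFD VSG. *H2-DMb1*, the H2-DM β chain with more UMIs in these cells, was at 39.6, 4.97 and 2.93 CPM in the crypts and at 46.3, 3.32 and 2.37 CPM in the villi. *Ciita* was at 14.6, 1.85 and 1.82 CPM in the crypts and at 16.3, 2.22 and 2.55 CPM in the villi, from 44 to 493 UMIs per library. *H2-DMa* and *Ciita* thus shared the gap between LFD sham and HFD libraries, whereas their HFD VSG and HFD sham values lay side by side.

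*H2-DMb2*, the other H2-DM β chain, was nearly absent from the epithelium, with 1 UMI in the enterocyte-like cells of each LFD sham library and 0 in the 4 HFD libraries. Of its 64 UMIs in all passing cells, 8 were in epithelial classes and 48 in B cell-like cells. In the last 500 bases of the longest *H2-DMb1* transcript, 52 of 411 stretches of 90 bases (12.7%) also occurred in *H2-DMb2*, and reads from them cannot be told apart. In those of the longest *H2-DMb2* transcript, 0 of 411 occurred in *H2-DMb1*.

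**Figure D1:**
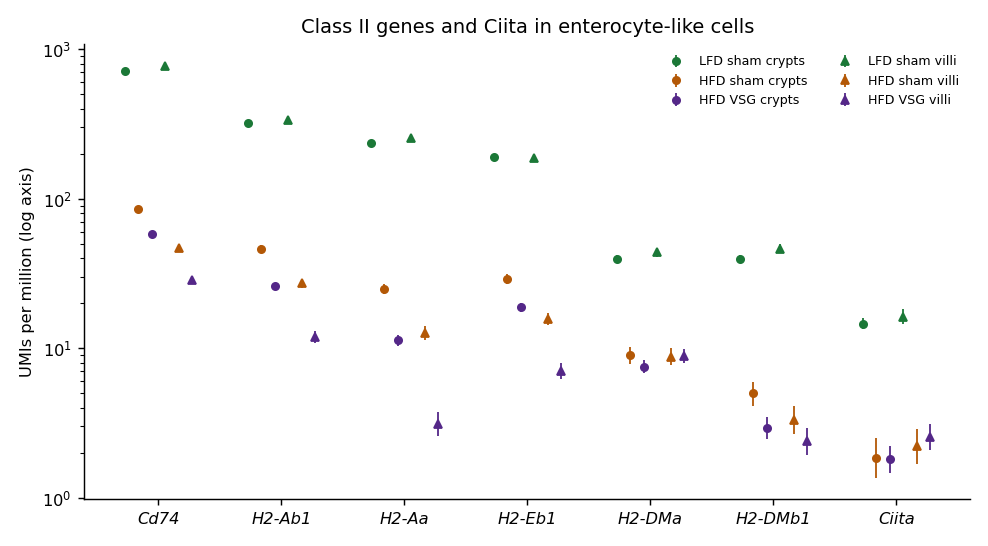
CPM (log axis) of 7 members in enterocyte-like cells of the 6 libraries, with circles for crypt-labelled and triangles for villus-labelled libraries and bars for 95% exact Poisson intervals. Both LFD sham libraries lie above the 4 HFD libraries for all 7 genes, from 720 and 776 for *Cd74* to 14.6 and 16.3 for *Ciita*, and *H2-DMb2* is left out because it had at most 1 UMI.

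The first comparison, HFD sham to LFD sham, addresses the effect of the diet. The summed class II level of enterocyte-like cells was 7.74-fold lower in the HFD sham crypts (log2 ratio −2.95, interval −3.00 to −2.91) and 14.4-fold lower in the HFD sham villi (−3.85, −3.90 to −3.79), beside a median log2 ratio over all genes of −0.00 in the crypts and 0.02 in the villi. Members whose mean UMIs reached 20 numbered 7, and all 7 were lower by at least 1 on the log2 scale in both pairs, beside 2.1% of 10592 genes in the crypts and 2.65% of 10498 genes in the villi. *H2-DMb2* was the member below this minimum.

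*H2-Aa* differed the most, with log2 ratios of −3.23 (−3.35 to −3.11) in the crypts and −4.33 (−4.49 to −4.16) in the villi, and 0.085% and 0.124% of the genes had a lower ratio. *H2-DMa* differed the least, with −2.15 (−2.37 to −1.94) and −2.32 (−2.54 to −2.11). The ratio of *Ciita* was −2.98 (−3.46 to −2.53) in the crypts and −2.87 (−3.31 to −2.46) in the villi. The ratios of *Cd74*, the 3 dimer genes and *H2-DMb1* were lower in the villi than in the crypts, while those of *H2-DMa* and *Ciita* had overlapping intervals in the 2 pairs.

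The second comparison, HFD VSG to HFD sham, addresses the effect of the surgery and shares its HFD sham libraries with the first. The summed level was lower in the HFD VSG libraries, with log2 ratios of −0.68 (−0.74 to −0.63) in the crypts and −0.89 (−0.96 to −0.81) in the villi, against medians of 0.11 and 0.00 over all genes. The cells of the villus pair lay unequally along the villus, ordered by villus-tip and villus-bottom genes into 5 bins: the bottom bin held 800 of 1127 HFD VSG and 713 of 1700 HFD sham cells, with 39.6 and 61.6 CPM, in the next bin the levels were 126 and 127 CPM with overlapping intervals, and in the other 3 bins HFD VSG was lower, at 112 against 198, 228 against 283 and 55.0 against 298 CPM, from 69, 40 and 26 HFD VSG cells. With at most 10% mitochondrial UMIs the villus ratio was −1.74, and this filter kept 660 of 1127 enterocyte-like cells of the HFD VSG villi but 368 of 1700 of the HFD sham villi. In the crypts 1 of 7 members, *H2-Aa* at −1.15 (−1.32 to −0.98), was lower by at least 1, beside 0.74% of 10947 genes. In the villi 3 of 7 were, beside 4.79% of 11010 genes, namely *H2-Aa* at −2.02 (−2.33 to −1.72), *H2-Ab1* at −1.19 (−1.37 to −1.02) and *H2-Eb1* at −1.15 (−1.38 to −0.93).

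*Cd74* had ratios of −0.56 (−0.64 to −0.48) and −0.71 (−0.82 to −0.59) in this comparison. *H2-DMa* was at −0.25 (−0.49 to −0.00) and 0.01 (−0.24 to 0.26), and *Ciita* at −0.03 (−0.56 to 0.52) and 0.20 (−0.28 to 0.69). In the villi the intervals of the transactivator and of the H2-DM α chain thus included 0 while those of the dimer genes did not. No member had an interval wholly above 0 in either pair.

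Set directly against LFD sham, the HFD VSG libraries were 12.4-fold lower in the crypts and 26.6-fold lower in the villi for the summed level. All 7 members were lower by at least 1 in both, beside 1.77% of 11184 genes in the crypts and 6.08% of 10973 genes in the villi, and the ratios ran from −2.40 for *H2-DMa* to −4.38 for *H2-Aa* in the crypts and from −2.31 to −6.35 for the same 2 genes in the villi.

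**Figure D2:**
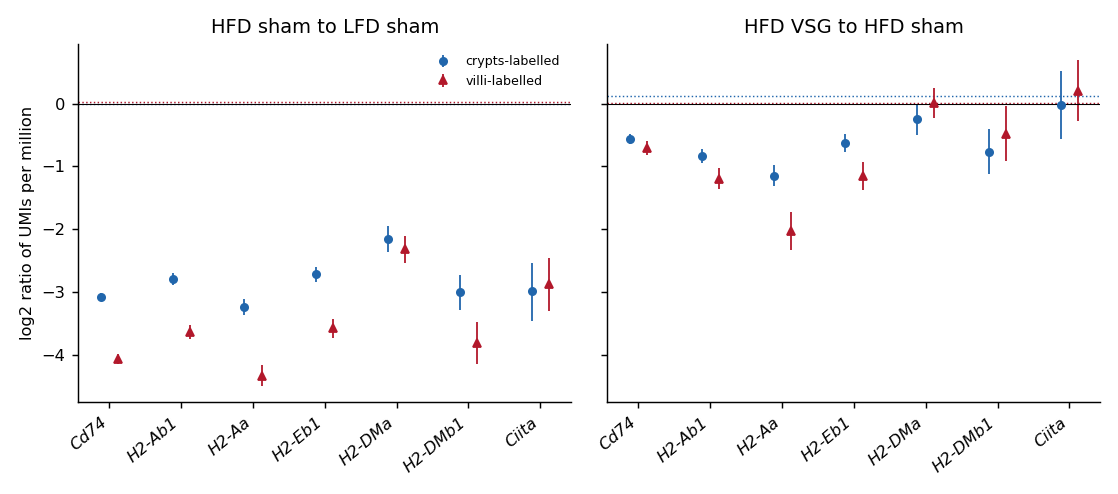
Log2 ratio of CPM in enterocyte-like cells for 7 members, HFD sham to LFD sham on the left and HFD VSG to HFD sham on the right, with circles for crypt-labelled and triangles for villus-labelled libraries, bars for 95% intervals of counting error and dotted lines for the median of all genes. On the left the members lie between −2.15 and −4.33, and on the right between 0.20 and −2.02 with *Ciita* and *H2-DMa* of the villi near 0.

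The composition of the class II RNA shifted with its level. *H2-DMa* made up 2.57% and 2.67% of the class II UMIs of enterocyte-like cells in the LFD sham crypts and villi, 4.48% and 7.70% in HFD sham, and 6.05% and 14.3% in HFD VSG. *H2-Aa* made up 15.2% and 15.4% in LFD sham, 12.5% and 11.1% in HFD sham, and 9.06% and 5.05% in HFD VSG. The share of *H2-Ab1* stayed between 19.2% and 23.8% in all 6 libraries, so the α chain of I-A, and not its β chain, took the smaller share where the level was low. *Ciita* UMIs per 1000 class II UMIs were 9.45 and 9.91 in LFD sham, 9.30 and 19.5 in HFD sham, and 14.6 and 41.3 in HFD VSG.

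Most LFD sham enterocyte-like cells held a class II UMI, and fewer HFD cells did, in counts not corrected for free RNA. At least 1 class II UMI was found in 93.4% and 92.0% of them in the LFD sham crypts and villi, in 41.0% and 31.2% in HFD sham, and in 36.0% and 37.5% in HFD VSG. Thinned to 3000 UMIs per cell, which leaves out 58, 72, 19, 23, 28 and 3 shallower cells, the shares were 79.7% and 76.7% in LFD sham, 22.0% and 14.4% in HFD sham, and 14.3% and 8.81% in HFD VSG. The order of the 2 HFD villus libraries by the full share was thus opposite to that by the thinned share and the level, and the depth of the HFD VSG villi is the higher.

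T cell-like cells were set beside the enterocyte-like cells because T cells should make little class II RNA in mice. They held a class II UMI in 58.3%, 37.5% and 35.3% of cells in the LFD sham, HFD sham and HFD VSG crypts and in 46.2%, 0% and 30.4% in the villi, at median depths of 1875.5 to 5829 UMIs against 13270 to 34679 UMIs in enterocyte-like cells. Only 12, 8 and 17 such cells came from the crypts and 6 from the HFD sham villi, where 0 of 6 cells leaves an upper limit of 45.9%.

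At 1500 UMIs per cell, the share of enterocyte-like cells with a class II UMI was 66.3% and 70.6% in LFD sham, against 54.5% and 27.0% in T cell-like cells, of which the crypts gave only 12. In HFD sham it was 15.9% and 10.6%, against 12.5% and 0%, for which the few T cell-like cells leave intervals of 0.316% to 52.7% and of 0% to 52.2%. In HFD VSG it was 9.84% and 6.21%, against 29.4% and 11.4% in T cell-like cells, of which the crypts gave only 17. The summed level was 61.7 CPM in the enterocyte-like and 98.1 CPM (87.0 to 110) in the T cell-like cells of the HFD VSG villi, and 124 and 114 CPM (51.9 to 216) in those of the HFD VSG crypts.

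In the HFD VSG libraries and the LFD sham villi, the T cell-like cells held more class II RNA than was estimated for free RNA, while in the LFD sham crypts the estimate of 231 CPM lay within their interval of 85.1 to 388 CPM. From the enterocyte genes found in them and the content of droplets with fewer than 100 UMIs, free RNA was estimated to bring 4.12 CPM of class II RNA to the T cell-like cells of the HFD VSG villi, 20.2 CPM to those of the HFD VSG crypts and 188 CPM to those of the LFD sham villi, where 276 CPM (252 to 301) were measured. *H2-DMa* made up 38.8% of the class II UMIs of T cell-like cells in the HFD VSG villi, against 20.1% in the droplets and 14.3% in enterocyte-like cells of that library. In droplets with fewer than 100 UMIs, class II RNA was at 1160, 155 and 101 CPM in the crypts and 871, 55.8 and 44.6 CPM in the villi, in the same order of groups as in the cells.

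The remaining class II RNA of the HFD libraries was unevenly spread over enterocyte-like cells. The 10% of cells with the most class II UMIs held 39.1% and 36.3% of them in LFD sham, 77.7% and 82.1% in HFD sham, and 83.8% and 83.0% in HFD VSG. *H2-Aa* was detected in 44.1% of the 395 cells with a *Cd74* UMI and in 3.26% of the 1442 without one in the HFD sham crypts, and in 43.0% of 242 and 2.67% of 1458 cells in the HFD sham villi. The median depth of the cells with and without *Cd74* was 13386 and 13250.5 UMIs in those crypts and 14554.5 and 15019.5 UMIs in those villi. In the HFD VSG villi the corresponding shares were 27.6% of 145 and 1.43% of 982 cells. The genes of the pathway were thus found together in a minority of the HFD cells, at like depths.

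*Ciita* was detected in the same cells more often than in others. It was found in 5.57% of the cells with and 1.32% of those without a *Cd74* UMI in the HFD sham crypts, in 10.7% and 1.85% in the HFD sham villi, and in 17.9% and 5.80% in the HFD VSG villi. In LFD sham, *Ciita* was found in 17.2% and 5.13% in the crypts, where the depths were unlike at 15140 and 7838 UMIs, and in 20% and 4.82% in the villi.

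Enterocyte-like cells fell into 6 clusters, and 1 of them had far more class II RNA in the HFD libraries than the most frequent ones. Cluster 8 was led by genes including *Fabp6*, the ileal bile acid-binding protein, and *Slc10a2*, the apical bile acid transporter. Its summed class II level was 1563, 692 and 395 CPM in the LFD sham, HFD sham and HFD VSG crypts and 2567, 655 and 232 CPM in the villi. For clusters 0 and 1, which held most enterocyte-like cells in each library, the HFD sham levels were 138 and 151 CPM in the crypts and 76.5 and 84.2 CPM in the villi, after LFD sham levels of 1619 and 1518 CPM in the crypts and 1259 and 1854 CPM in the villi.

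The log2 ratio of HFD sham to LFD sham in cluster 8 was −1.18 (−1.26 to −1.10) in the crypts and −1.97 (−2.07 to −1.87) in the villi. It was −3.56 (−3.63 to −3.49) and −4.04 (−4.12 to −3.96) in cluster 0, and −3.33 (−3.42 to −3.24) and −4.46 (−4.60 to −4.32) in cluster 1. The intervals of cluster 8 did not overlap those of clusters 0 and 1. The 8 members and the class II, interferon-γ response and MHC class I lists had been left out of the genes used for clustering.

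Within cluster 8, *Cd74* was at 738, 319 and 198 CPM in the crypts and 1197, 334 and 133 CPM in the villi, and *H2-Aa* was at 260, 90.4 and 38.0 CPM in the crypts and 435, 81.9 and 10.3 CPM in the villi. At 1500 UMIs per cell, the share of cluster 8 cells with a class II UMI was 37.1% and 40.5% in HFD sham and 24.5% and 15.8% in HFD VSG, crypts first. In cluster 0 of the same libraries it was 13.6% and 7.74% in HFD sham and 7.25% and 3.70% in HFD VSG. The share of cluster 8 thus lay above that of cluster 0 of the same library at equal depth, with intervals of 20.2% to 29.1% and 10.3% to 22.7% in HFD VSG. Cluster 8 held 131 to 376 cells per library.

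A single distal gene, *Fabp6*, gave a like split, but it is among the leading genes of cluster 8, so the split is not independent of that cluster. Cluster 2, led by *Fabp6* too but not named enterocyte-like, is outside this split. In both HFD sham libraries its summed level, given below, lay under those of clusters 0 and 1. Enterocyte-like cells with a *Fabp6* UMI had 633 CPM of class II RNA in the HFD sham crypts and 296 CPM in the HFD sham villi, against 188 and 109 CPM in cells without one. In HFD VSG the values were 371 against 114 CPM in the crypts and 179 against 51.5 CPM in the villi. In LFD sham the order was the opposite, with 1371 against 1551 CPM in the crypts and 1361 against 1654 CPM in the villi. Between 37 and 100 cells per library held a *Fabp6* UMI.

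Cluster 6, led by villus-tip genes such as *Ada* and *Nt5e*, had 1192, 180 and 168 CPM of class II RNA in the crypts and 2872, 218 and 64.3 CPM in the villi, the last from 24 cells. Cluster 14, led by interferon-induced genes such as *Ifit1* and *Isg15*, had 1585, 174 and 129 CPM in the crypts and 1447, 178 and 165 CPM in the villi, from 21 to 78 cells per library. The LFD sham libraries were thus the highest in the cells with the interferon-induced program too. Cluster 17 held 3 to 79 cells per library and had 965, 100 and 92.5 CPM in the crypts and 109, 11.8 and 25.3 CPM in the villi.

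**Figure D3:**
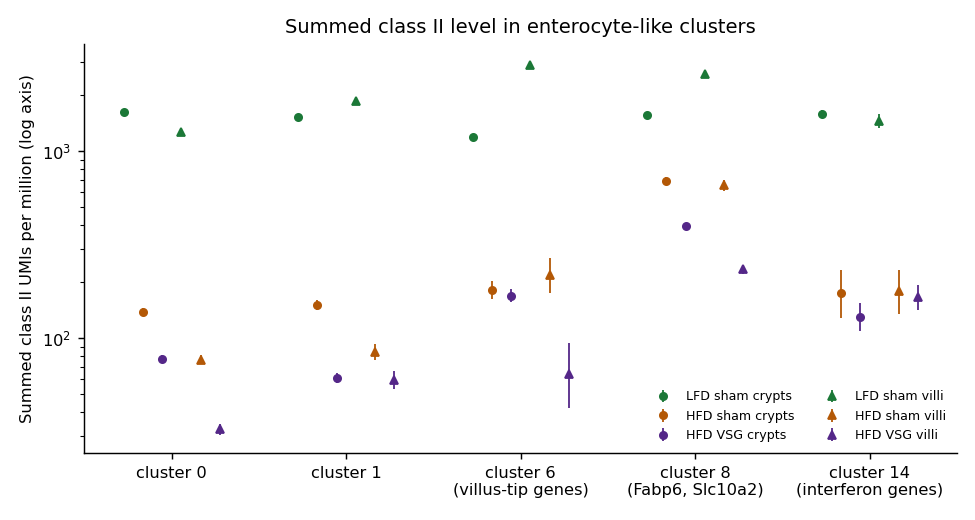
Summed class II level in CPM (log axis) in 5 enterocyte-like clusters of the 6 libraries, with circles for crypt-labelled and triangles for villus-labelled libraries and bars for 95% exact Poisson intervals. In cluster 8 the HFD sham libraries lie at 692 and 655, above the HFD sham libraries of the other clusters shown, which lie between 76.5 and 218.

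Class II RNA also varied along the villus. Enterocyte-like cells were put into 5 bins by the difference between their mean log levels of villus-tip and villus-bottom genes, with bin limits common to all libraries. From the bottom bin to the tip bin the summed level was 738, 1427, 2283, 2597 and 3064 CPM in the LFD sham villi and 61.6, 127, 198, 283 and 298 CPM in the HFD sham villi. In the LFD sham crypts it was 1106, 1328, 1608, 1816 and 1406 CPM, and in the HFD sham crypts 68.1, 97.9, 208, 329 and 273 CPM. The HFD VSG crypts gave 46.0, 86.4, 140, 137 and 196 CPM, and the HFD VSG villi 39.6, 126, 112, 228 and 55.0 CPM, of which the last bins held 40 and 26 cells. In every library the bottom bin had the lowest level, and in each of the 5 bins both LFD sham libraries lay above all HFD libraries. Median depth fell along the bins, from 18201.5 to 6264 UMIs in the LFD sham villi, and villus-tip genes themselves differed between groups. In the HFD sham villi 6 of 8, among them *Ada*, *Clca4a* and *Pmp22* but not *Krt20*, were lower by at least 1 than in LFD sham, beside 2.65% of all genes. In the crypts 0 of 8 were, near the 2.1% of all genes.

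**Figure D4:**
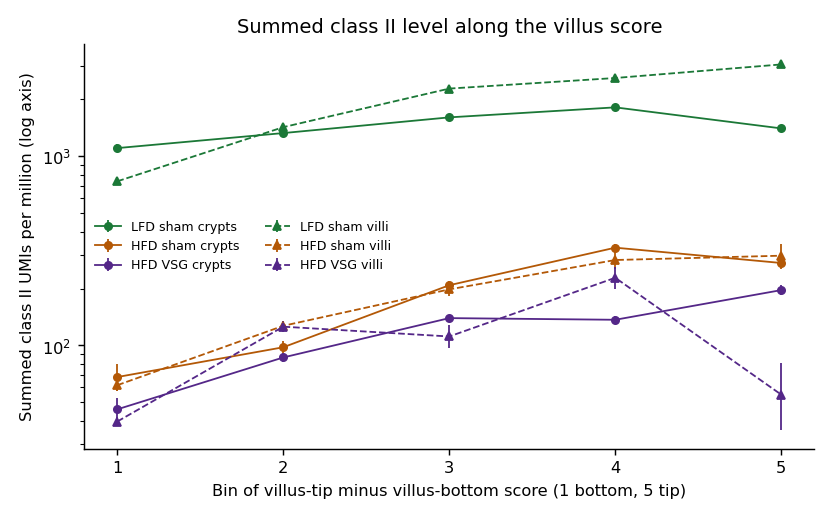
Summed class II level in CPM (log axis) of enterocyte-like cells in 5 bins of the villus-tip minus villus-bottom score, from bottom (1) to tip (5), with solid lines and circles for crypt-labelled and dashed lines and triangles for villus-labelled libraries and bars for 95% exact Poisson intervals. The LFD sham villi climb from 738 to 3064 and the HFD sham villi from 61.6 to 298, and the tip bin of the HFD VSG villi at 55.0 holds 26 cells.

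Among the named epithelial classes, enterocyte-like cells had the highest summed level in 6 of 6 libraries, although in the HFD VSG villi they exceeded stem-like cells by a log2 ratio of only 0.00 (−0.11 to 0.12), an order that 5 alternative settings turned. In the HFD sham crypts the stem-like level, from 120 class II UMIs, lay close below the enterocyte-like one, so that order is uncertain too. *Cd74* alone was there at 101 CPM (78.2 to 129) in stem-like and 85.4 CPM (81.8 to 89.2) in enterocyte-like cells. In the HFD VSG villi *Cd74* made up 54.3% of the stem-like and 46.1% of the enterocyte-like class II UMIs, at like sums. In both LFD sham libraries, the HFD VSG crypts and the HFD sham villi, *Cd74* was higher in enterocyte-like cells. Stem-like cells, the dividing cells of the crypt base, had 528, 184 and 79.7 CPM in the LFD sham, HFD sham and HFD VSG crypts and 547, 44.8 and 61.5 CPM in the villi. Their ratio of HFD sham to LFD sham was −1.52 (−1.83 to −1.22) in the crypts and −3.61 (−3.94 to −3.31) in the villi. The 3 groups therefore kept the order LFD sham first in stem-like cells too, from 47 to 449 cells per library. At 1500 UMIs per cell, 7.14% and 9.13% of the stem-like cells of the HFD VSG crypts and villi held a class II UMI, against 29.4% and 11.4% of the T cell-like cells, of which the crypts gave only 17. *H2-Aa* made up 1.52% and *Cd74* 54.3% of the class II UMIs of stem-like cells in the HFD VSG villi, against 3.92% and 38.2% in the droplets with fewer than 100 UMIs.

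Early progenitor-like cells, whose cluster was led in part by genes of the G2 and M phases, had 390, 26.4 and 27.9 CPM in the crypts and 306, 17.5 and 23.7 CPM in the villi. Cycling progenitor-like cells had 347, 105 and 54.0 CPM in the crypts and 279, 33.7 and 41.7 CPM in the villi. Cluster 2, which met no class rule and was led by *Fabp6* and *Car4* among others, had 839, 79.7 and 75.1 CPM in the crypts and 443, 60.5 and 48.8 CPM in the villi. In each of these, the LFD sham library was the highest of the 3 with the same label.

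Secretory cells were read in 4 classes. Goblet-like cells, which make mucus, had 296, 93.9 and 39.2 CPM in the crypts and 214, 31.2 and 28.1 CPM in the villi. Enteroendocrine (EEC)-like cells had 159, 71.4 and 27.2 CPM in the crypts and 215, 44.2 and 24.4 CPM in the villi, and tuft-like cells 132, 73.0 and 22.0 CPM in the crypts and 209, 6.10 and 24.1 CPM in the villi. Paneth-like cells, which secrete antimicrobial peptides at the crypt base, had 135, 4.17 and 26.0 CPM in the crypts and 87.5, 6.19 and 7.53 CPM in the villi. They were the lowest of the named classes in 3 of 6 libraries, and tuft-like cells were in the others. Each library held 19 to 45 EEC-like, 12 to 66 tuft-like and 31 to 233 Paneth-like cells. In HFD sham, the Paneth-like 4.17 CPM in the crypts and the tuft-like 6.10 CPM in the villi equal 3 UMIs. The order of the lowest classes thus rests on few UMIs. At 1500 UMIs per cell the shares of goblet-like, EEC-like, tuft-like and Paneth-like cells with a class II UMI were below those of T cell-like cells in both LFD sham and both HFD VSG libraries. In the LFD sham and HFD VSG crypts the T cell-like share rests on at most 12 and 17 cells, so its error is wide. The HFD sham libraries, with 8 and 6 T cell-like cells, are outside this statement.

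The goblet-like cells differed in composition. *H2-Ab1* made up 28.0% and 25.5% of their class II UMIs in the LFD sham crypts and villi, 32.5% and 55.7% in HFD sham, and 45.5% and 60.2% in HFD VSG, from 77 to 1241 class II UMIs. In droplets with fewer than 100 UMIs the share of *H2-Ab1* was 19.0% to 27.1% in all 6 libraries. In level, *H2-Ab1* was at 17.4 and 16.9 CPM in goblet-like cells of the HFD sham and HFD VSG villi, and *H2-Aa* at 0.953 and 0.372 CPM, from 4 and 3 UMIs.

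B cell-like cells, which present antigen by class II molecules as their regular function, had the highest levels of any class, 12919 CPM from 65 cells of the LFD sham villi and 5697 to 19355 CPM in 4 other libraries with 1 to 3 cells each. In the LFD sham villi *H2-Aa*, *H2-DMb2* and *Ciita* were at 3122, 260 and 322 CPM in these cells.

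**Figure D5:**
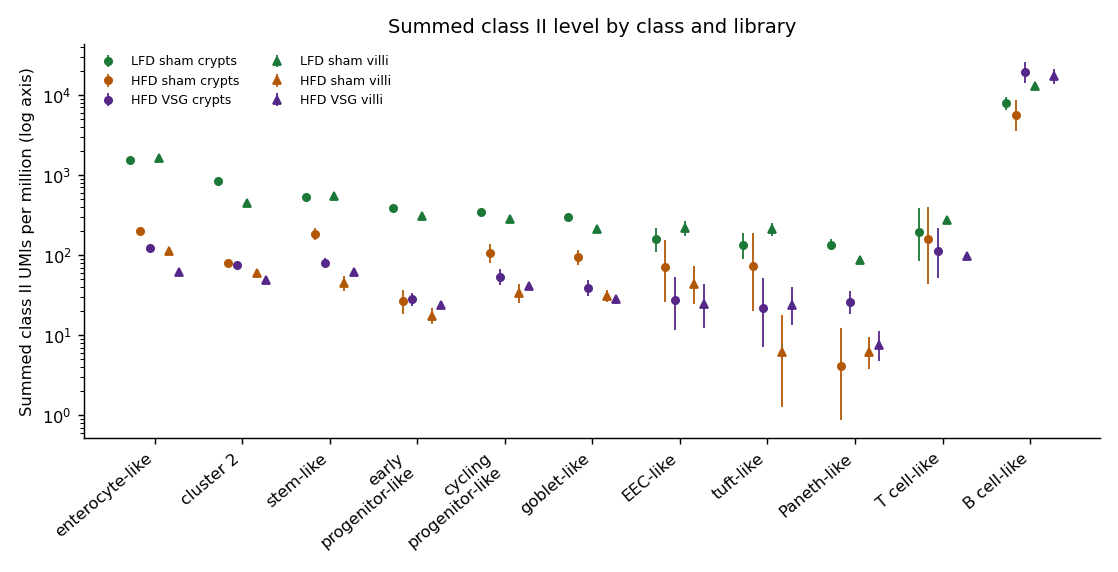
Summed class II level in CPM (log axis) in 11 cell classes of the 6 libraries, with circles for crypt-labelled and triangles for villus-labelled libraries and bars for 95% exact Poisson intervals. Enterocyte-like cells lie between 61.7 and 1642, Paneth-like cells between 4.17 and 135, and B cell-like cells between 5697 and 19355, and the T cell-like cells of the HFD sham villi, with 0 UMIs, are not drawn.

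Markers of leukocytes moved with the groups in part. The 8 B cell markers summed to 0.0592, 0.379 and 0.117 CPM in enterocyte-like cells of the LFD sham, HFD sham and HFD VSG crypts and to 248, 1.29 and 0.445 CPM in those of the villi. In the LFD sham crypts 6 of 8, *Cd79a*, *Cd79b*, *Ms4a1*, *Igkc* and *Cd22* among them, were at 0. In the LFD sham villi 1 of 8, *Cd22*, was at 0. The 12 T cell markers summed to 7.40, 4.30 and 3.11 CPM in the crypts and 56.4, 0.351 and 24.4 CPM in the villi, and the 10 myeloid markers to 72.6, 90.03 and 87.5 CPM and 102, 106 and 190 CPM, with 5 to 7 of the 10 at 0 in each library. The myeloid sum can come from 1 gene, *Cst3*. In stem-like cells of the LFD sham crypts 9 of the 10 markers, all but *Cst3*, were at 0, and the sum was still 134 CPM. It is therefore not a level of myeloid RNA. The part of leukocyte RNA in the class II levels was not tested.

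Other values also differed between the libraries. *Gm42418*, a gene that marks damaged droplets, was at 57631, 47709 and 13054 CPM in enterocyte-like cells of the LFD sham, HFD sham and HFD VSG crypts and at 62647, 36880 and 8986 CPM in those of the villi. The median mitochondrial share was 13.4%, 12.1% and 13.1% in the crypts and 12.9%, 11.7% and 9.32% in the villi. Their part in the class II levels was not tested, and diet and surgery cannot be told apart from the library itself.

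Other genes of the pathway had smaller differences. Of the 13 other class II genes, 11 were among the genes counted and 7 reached a mean of 20 UMIs in enterocyte-like cells. Between HFD sham and LFD sham 0 of these 7 were lower or higher by at least 1, with medians of −0.10 in the crypts and −0.13 in the villi. Of all genes 2.1% in the crypts and 2.65% in the villi were lower and 1.46% and 1.42% higher, a background near which 0 of 7 lies. The 7 genes include the proteases *Ctss*, *Ctsb* and *Ctsd* and the thiol reductase *Ifi30*, with ratios of −0.42, −0.09, −0.04 and −0.07 in the crypts and −0.29, 0.10, −0.09 and 0.02 in the villi. *H2-Oa* and *H2-Ob*, which encode the H2-DM inhibitor of B cells, had 0 UMIs in the crypts and 2 and 4 UMIs in the LFD sham villi.

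The factors on which Ciita assembles were counted as well. Of the 7 promoter factor genes (*Rfx5*, *Rfxank*, *Rfxap*, *Nfya*, *Nfyb*, *Nfyc* and *Creb1*), 0 were lower or higher by at least 1 between HFD sham and LFD sham, beside the 2.1% and 2.65% of all genes that were lower and the 1.46% and 1.42% that were higher in the crypts and villi, a background near which a count of 0 of 7 lies. *Creb1*, which binds the X box beside RFX, had ratios of −0.52 in the crypts and −0.35 in the villi, and *Rfxap*, *Nfyb* and *Nfyc* lay between −0.25 and 0.12. *Rfx5* had ratios of 0.16 in the crypts and −0.15 in the villi, and 1.03 in the crypts and 0.37 in the villi between HFD VSG and HFD sham. Of the 6 MHC class I genes, which present cytosolic peptides and include *H2-K1*, *H2-D1*, *B2m* and *Psmb10*, 0 were lower by at least 1, also near the 2.1% and 2.65% of all genes, with medians of −0.24 and −0.27. *H2-K1* was at 898, 693 and 772 CPM in the crypts and 640, 477 and 412 CPM in the villi.

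Genes that respond to interferon-γ were mixed. Of the 16 on the list, 9 could be compared in the crypts and 5 of them, *Gbp6*, *Gbp7*, *Igtp*, *Irgm1* and *Ubd*, were lower by at least 1 in HFD sham than in LFD sham, beside 2.1% of all genes (list median −1.76). In the villi 7 could be compared and 3, *Gbp7*, *Igtp* and *Ubd*, were lower, beside 2.65% of all genes (list median −0.56). *Ubd*, a ubiquitin-like modifier, was at 10.8, 0.295 and 1.23 CPM in the crypts and 26.0, 0.624 and 0.148 CPM in the villi. *Psmb8*, *Psmb9* and *Tap1*, which serve the class I pathway, had ratios of −0.21, −0.17 and −0.34 in the crypts and −0.04, −0.22 and −0.23 in the villi. Between HFD VSG and HFD sham 0 genes of this list were lower by at least 1, near the 0.74% of all genes in the crypts and 4.79% in the villi. In the crypts 3 of 8 were higher, *Gbp7*, *Igtp* and *Ubd*, beside 2.08% of all genes.

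Interferon-γ signalling genes were compared too. Of 8 genes in the villi, 0 were lower by at least 1 in HFD sham than in LFD sham, near the 2.65% of all genes. The receptor chains *Ifngr1* and *Ifngr2* had ratios of −0.21 and −0.10 in the crypts and −0.10 and 0.04 in the villi, and the kinase gene *Jak2* and the regulator *Irf2* lay between −0.05 and 0.14. *Ifng* itself, made by T cells, had 97 UMIs (53.8 CPM, 43.6 to 65.6) in the 563 T cell-like cells of the LFD sham villi and 38 UMIs (13.0 CPM, 9.22 to 17.9) in the 457 of the HFD VSG villi. In the HFD sham villi it had 8 UMIs in only 6 cells, or 737 CPM (318 to 1451), the highest level of the 3 villus libraries, and in the crypts 0 to 3 UMIs. *Rfx5*, *Duoxa2*, the *Gbp* genes, *Igtp*, *Irgm1*, *H2-Oa* and *H2-Ob* are named here after their values were seen.

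Costimulatory genes were scarce. *Cd80*, *Cd86*, *Cd40* and *Pdcd1lg2* were each at 0 to 0.0592 CPM in enterocyte-like cells of the 6 libraries. *Cd274*, the ligand PD-L1, was at 1.92, 0.379 and 0.332 CPM in the crypts and 0.269, 0.195 and 0.198 CPM in the villi, and *Icosl* at 5.60, 3.12 and 2.87 CPM in the crypts and 4.85, 4.18 and 2.35 CPM in the villi.

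Genes of other programs were counted in the same way between HFD sham and LFD sham. Of all genes, 2.1% in the crypts and 2.65% in the villi were lower by at least 1, and 1.46% and 1.42% were higher. A count of 0 in the small lists below lies near these shares. Of 4 distal small-intestinal genes compared, *Fabp6*, *Slc51a*, *Slc51b* and *Slc10a2*, 1 was higher by at least 1 in HFD sham than in LFD sham crypts, *Fabp6* at 1.07, and 0 in the villi, where it was at 0.35. Between HFD VSG and HFD sham villi *Fabp6* was at 119 against 23.2 CPM and *Lct* at 350.2 against 785 CPM. Of the 4 proximal genes *Fabp1*, *Lct*, *Gata4* and *Onecut2*, 0 were lower or higher by at least 1 between HFD sham and LFD sham. Of 7 villus-bottom genes, *Plac8*, *Lypd8*, *Ccl25* and *Arg2* among them, 0 passed this size in either pair of that comparison. Of the 4 genes of damaged droplets, *Gm42418*, *AY036118*, *Lars2* and *Gm26917*, 0 did in the crypts and 1 was lower in the villi, *AY036118* at −1.02. Of 6 microbe-induced genes, 2 in the crypts (*Reg3g* and *Saa1*) and 6 in the villi were lower by at least 1 in HFD sham than in LFD sham. The shares of all genes beside them are 2.1% and 2.65%. *Duoxa2* was higher in the crypts, beside 1.46% of all genes. The antimicrobial lectins *Reg3b* and *Reg3g* had ratios of −0.25 and −1.09 in the crypts and −1.11 and −1.93 in the villi, and *Nos2* of −0.39 and −1.98. *Saa1*, serum amyloid A of the epithelium, was at 22.4, 2.40 and 1.64 CPM in the crypts and 42.7, 0.429 and 0.495 CPM in the villi.

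The genes most like the summed class II level were sought by Pearson's r of log2(CPM + 1) over 46 pairs of named epithelial class and library among 9944 genes. Among the 10 highest were *Reg3b* (r = 0.74), *Bach1* (0.70), *Mgam* (0.69), *Fam102a* (0.68), *Nme7* (0.68), *Angptl4* (0.66), *Saa1* (0.65), *Reg3g* (0.65) and *Ubd* (0.63). Over 32 pairs of enterocyte-like cluster and library among 8610 genes they were *Alpk1* (0.86), *Saa1* (0.84), *Clca3a2* (0.83), *Ubd* (0.82), *Mgam* (0.81), *Casz1* (0.80), *Clca3a1* (0.79), *Serinc3* (0.78), *Fkbp5* (0.78) and *Sik3* (0.77). *Ciita*, which was not in the sum, had r = 0.79 over the classes and 0.71 over the clusters. Pairs of 1 library share its depth and free RNA, and those of 1 class share its cell type, so these values are descriptions.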

How the data were processed

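The deposited files held UMI counts per gene and barcode for each library, which the authors had made with Cell Ranger 6.0.0 on the mm10 genome, per the submitters' processing notes; they were not normalized, and the raw tables also held droplets that were not called as cells. Barcodes with at least 750 genes and at most 20% mitochondrial UMIs were kept, simulated doublets (2 per barcode, 20 neighbours) marked 0.8% per 1000 called barcodes for removal, and 24127 of 59457 called barcodes remained. The libraries were integrated and clustered in R 4.3.3 with Seurat 5.3.0 and sctransform 0.4.2 as the study describes (2000 variable genes, 30 components, resolution 0.4), leaving the members, the other class II genes and the interferon-γ response and MHC class I lists out of the variable genes. The study's own removal of free RNA was not applied to the counts and was tried as an alternative, with the fraction the study states for each library.

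No cell annotation was used. A cluster received the name of a class, written "-like", where over 50% of the markers of that class were at least 2 times their level in the lower-quartile (25th percentile) cluster and in at least 10% of cells, and where the summed markers reached 50% of the highest cluster; these limits were chosen with the clusters known. Immune cells were clustered again at resolution 1.0, and clusters that met no rule stayed numbered. Clusters with at least 10% of their UMIs in the 4 genes of damaged droplets were set apart as damaged, whatever markers they met. These were clusters 3 and 4, which met 10 of 10 enterocyte markers. They held 3460 barcodes, from 309 in the HFD VSG villi to 930 in the LFD sham crypts. Cluster 6, at 9.86%, stayed enterocyte-like just under this limit.

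UMIs were summed per class and library and divided by the class total (CPM), with 95% exact Poisson intervals. Ratios have an exact conditional binomial interval, need a mean of at least 20 UMIs to enter a count, and count as lower or higher from a log2 size of 1. That mean is over the libraries of the pair, so a gene can enter through the library where it is high. For ratios, sums below 3 UMIs were set to 3. Shares have exact binomial intervals, and free RNA was estimated from enterocyte genes in T cell-like cells and the content of droplets with fewer than 100 UMIs. Sums, intervals and doublet scores were computed with scikit-learn 1.9.0, scipy 1.17.1 and numpy 2.4.6 under Python 3.11.15, and the ratio intervals were tested on simulated data.

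The named genes were the 8 members, in each other list the 4 genes with the highest mean CPM in enterocyte-like cells, and the 10 genes most like the summed level. Some results are not reported here. Members and lists were chosen with earlier results of these data known. Alternatives covered free RNA, cell filters, doublets, scaling, leukocyte RNA, single cells, cell weights, resolution, depth and thresholds.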

Additional observations from a re-analysis of the deposited data

Results flagged for a closer look

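The ratio of HFD VSG to HFD sham had opposite signs in the crypt-labelled and the villus-labelled pair, with both intervals off 0, in a few values. In stem-like cells the summed class II level had a log2 ratio of −1.21 (interval −1.54 to −0.86) in the crypts and of 0.46 (0.14 to 0.79) in the villi, and *Cd74* of −1.37 (−1.84 to −0.90) and 0.75 (0.28 to 1.26). In enterocyte-like cluster 6, *Cd74* had a log2 ratio of 0.35 (0.05 to 0.65) in the crypts and of −2.02 (−3.12 to −1.04) in the villi, the latter from 24 cells of the HFD VSG villi. The difference between the pairs was not tested, since each pair is 1 library against 1 library.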

How the results depend on the processing

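No paired analysis was possible because each group gave 1 library with each label. The summed class II level of enterocyte-like cells kept its direction in all 3 comparisons and both labels under every alternative run, and the causes of the moves below were not tested. With at most 10% mitochondrial UMIs the log2 ratios were −2.62 and −3.31 for HFD sham to LFD sham (crypts, then villi), −0.75 and −1.74 for HFD VSG to HFD sham, and −3.38 and −5.05 for HFD VSG to LFD sham, against −2.95, −3.85, −0.68, −0.89, −3.64 and −4.73. Without the 1% of cells with the most class II UMIs they were −3.19, −4.26, −0.80, −1.04, −3.98 and −5.30 in the same order. After subtraction of free RNA with a stated fraction for each library, they were −2.84 and −3.74 for HFD sham to LFD sham and −0.79 and −1.02 for HFD VSG to HFD sham, and with fractions from T cell-like cells the villi were at −0.99 for HFD VSG to HFD sham and −4.87 for HFD VSG to LFD sham. As means over cells, HFD sham to LFD sham was at −2.81 and −3.77, HFD VSG to HFD sham at −0.97 in the villi and HFD VSG to LFD sham at −3.54 in the crypts. Median-of-ratios scaling gave −0.80 for HFD VSG to HFD sham and −3.74 for HFD VSG to LFD sham, both in the crypts. With doublets kept, the villi were at −3.78 for HFD sham to LFD sham and −0.97 for HFD VSG to HFD sham, and at resolution 0.8 they were at −3.73 for HFD sham and −4.59 for HFD VSG, each to LFD sham. That resolution gave 26 clusters in place of 18.

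The share of enterocyte-like cells with a class II UMI was lower by 52.4 percentage points in HFD sham than in LFD sham crypts (difference −52.4) and by 60.7 in the villi (−60.7). The differences were −43.6 and −54.5 with at most 10% mitochondrial UMIs, −57.4 and −64.4 thinned to 3000 UMIs, −35.6 and −46.6 for at least 5 UMIs at that depth, and −57.0 in the villi thinned to 1500 UMIs. Thinning draws UMIs at random and was drawn anew here. The thinned differences are therefore not exactly those between the thinned shares given in the Results. The order of enterocyte-like above stem-like cells in the HFD VSG villi, at 0.00, turned to −0.22 with at most 10% mitochondrial UMIs, to −0.082 without barcodes holding any of 8 leukocyte genes, to −0.40 without the 1% of cells with the most class II UMIs, to −0.078 at resolution 0.8 and to −0.20 with median-of-ratios scaling. Enterocyte-like cells were then the highest class in 5 of 6 libraries. The share of all genes lower by the set size in HFD sham was 1.12% in the crypts and 1.29% in the villi at a minimum of 100 UMIs, and 8.12% and 8.47% at a log2 size of 0.5, against 2.1% and 2.65%.

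With 1 pooled library for each group and label, intervals hold counting error only, so no statement can be made on the variation between mice. Depth limits *Ciita*, *H2-DMb2* and the T cell-like values, which rest on few cells in 4 libraries.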
